A study of Homo sapiens with 8 samples.

Results

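The 30 genes described here encode proteins that carry cells from G2 through mitosis: the cyclins and kinases of entry, the spindle checkpoint, the kinetochore, the spindle motors and microtubule proteins, the anaphase machinery and 2 chromosome proteins, TOP2A and MKI67. They were named by their roles, with earlier results of these data known, and all 30 were found among the 40693 symbols of the deposited tables, each with 1 entry. Their RNA was measured by sequencing of total RNA in 8 libraries of 2 established human colorectal adenocarcinoma lines. SW480, labelled Dukes' type B, and SW620, labelled Dukes' type C, contributed 1 untreated library each. SW620 cells with a hairpin against the transcription factor FOXA2 (shFOXA2) and SW620 cells with the control hairpin (shNC) contributed 3 libraries each. Both hairpin groups were stable populations carrying a lentiviral U6 vector with a puromycin resistance gene and mCherry and kept under puromycin at 2 μg/ml, so neither group is vector-free. The labels list 2 hairpins against FOXA2, and the sample titles point to the first. The libraries of a group are labelled as replicates, with nothing said about separate cultures, and p-values therefore measure the spread between these libraries only.

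Mitotic genes are transcribed late in the cell cycle. In quiescent and early-cycle cells the DREAM complex holds them off, in part through a cell cycle homology region in their promoters, and in G2 the MuvB core with B-MYB and FOXM1, together with NF-Y at CCAAT boxes, turns them on. Cyclin B with CDK1 then drives entry into mitosis, the checkpoint kinases delay anaphase until the kinetochores are attached, and the anaphase promoting complex with CDC20 ends mitosis by destroying cyclin B and securin. In dividing tissue, including the crypts of the colon and tumours that arise from it, the summed RNA of such genes is widely used as a measure of proliferation, with MKI67 as its best known member. In bulk RNA, fewer cells in G2 and mitosis and less RNA in each such cell cannot be told apart.

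The promoters of these genes are shown first because their short elements can be set beside the calls, both in members with the largest differences between the hairpin groups and in members without a call. RefSeq promoters on GRCh38.p14, from 250 bases before to 50 after the annotated start, were found for 25 of the 30 members; AURKA, TTK, BIRC5, TPX2 and UBE2C had no entry in the table used. For 8 of them the 200 bases from 150 before to 50 after the start are given, read along the gene's strand. MKI67 at chr10:128126374-128126573 (minus strand), CENPA at chr2:26785906-26786105 (plus strand), KIF2C at chr1:44739687-44739886 (plus strand) and CDC25C at chr5:138338306-138338505 (minus strand) had the 4 largest falls of all members in shFOXA2. CCNB1 at chr5:69167000-69167199 (plus strand) is the first cyclin B gene. CCNB2 at chr15:59104996-59105195 (plus strand), CCNA2 at chr4:121823834-121824033 (minus strand) and CDC20 at chr1:43358831-43359030 (plus strand) did not pass the test. Capitals mark TTTGAA and TTTAAA, the letters of the cell cycle homology region, and CCAAT, each on either strand (TTCAAA and ATTGG on the other).
MKI67: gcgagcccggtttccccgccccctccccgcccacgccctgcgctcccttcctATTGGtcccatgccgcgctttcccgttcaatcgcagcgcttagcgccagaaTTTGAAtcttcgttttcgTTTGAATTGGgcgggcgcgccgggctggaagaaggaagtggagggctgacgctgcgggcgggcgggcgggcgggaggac
CENPA: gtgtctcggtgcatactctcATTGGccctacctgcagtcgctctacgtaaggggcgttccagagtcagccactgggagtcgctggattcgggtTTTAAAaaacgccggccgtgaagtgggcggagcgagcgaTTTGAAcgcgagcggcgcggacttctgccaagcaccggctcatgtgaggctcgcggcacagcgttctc
KIF2C: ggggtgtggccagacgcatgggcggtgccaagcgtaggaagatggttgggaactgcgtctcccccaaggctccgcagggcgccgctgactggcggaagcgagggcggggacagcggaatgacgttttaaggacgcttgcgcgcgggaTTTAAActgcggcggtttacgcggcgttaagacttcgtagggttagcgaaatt
CDC25C: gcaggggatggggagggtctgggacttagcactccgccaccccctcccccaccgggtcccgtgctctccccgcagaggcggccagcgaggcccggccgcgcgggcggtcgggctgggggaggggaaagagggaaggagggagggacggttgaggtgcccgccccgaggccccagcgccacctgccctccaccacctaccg
CCNB1: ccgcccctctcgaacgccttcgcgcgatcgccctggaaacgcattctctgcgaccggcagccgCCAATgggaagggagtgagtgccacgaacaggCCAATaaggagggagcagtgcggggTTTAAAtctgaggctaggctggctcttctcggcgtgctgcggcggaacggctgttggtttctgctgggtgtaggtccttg
CCNB2: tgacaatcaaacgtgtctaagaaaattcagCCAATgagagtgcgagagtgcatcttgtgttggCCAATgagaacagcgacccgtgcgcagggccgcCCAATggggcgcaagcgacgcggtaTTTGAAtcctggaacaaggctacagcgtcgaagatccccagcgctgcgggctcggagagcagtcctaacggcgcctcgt
CCNA2: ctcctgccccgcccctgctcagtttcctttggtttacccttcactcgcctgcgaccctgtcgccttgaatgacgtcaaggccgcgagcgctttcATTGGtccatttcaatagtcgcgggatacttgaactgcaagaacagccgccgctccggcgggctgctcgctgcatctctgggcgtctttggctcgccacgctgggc
CDC20: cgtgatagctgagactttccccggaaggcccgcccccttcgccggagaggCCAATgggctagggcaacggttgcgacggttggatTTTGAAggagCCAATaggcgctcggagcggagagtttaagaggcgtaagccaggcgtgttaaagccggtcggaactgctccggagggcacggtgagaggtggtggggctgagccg

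In MKI67 the TTTGAA letters began at positions -47 and -29 from the start, the second of them overlapping a CCAAT box on the other strand at -24. Another CCAAT box of MKI67 lay at -98. CCNB1 had TTTAAA at -30 with CCAAT boxes at -87 and -55, and CCNB2 had TTTAAA at -193 and TTTGAA at -29 with CCAAT boxes at -244, -120, -87 and -54. CCNB1 fell and CCNB2 was not called. CENPA had TTTAAA at -57 and TTTGAA at -18, with CCAAT boxes at -205 and -130. KIF2C had 1 match, TTTAAA at -3, and no CCAAT box. CDC20, not called, had TTTGAA at -178 and at -65, the latter between CCAAT boxes at -100 and -55. CDC25C, whose fitted fall was the fourth largest, had none of the searched letters in its 300 bases. Only 1 annotated start per gene was searched, so letters near any other start of CDC25C would be missed. CCNA2 had 1 CCAAT box, at -56, and neither TTTGAA nor TTTAAA. Variant letters of the homology region were not searched, so this does not show that CCNA2 lacks the element.

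TTTGAA or TTTAAA occurred in 20 of the 25 member promoters (80%), against 24% of the 35116 promoters of the table and 48.7% of 113 promoters of other mitosis genes. CCAAT occurred in 21 of 25 (84%), against 34.6% of all promoters, and at least 2 CCAAT boxes in 16 of 25 (64%), against 10.8%. Both elements were present in 17 of 25 (68%), against 9.27%. TTTGAA within 50 bases of the start was found in 11 of 25 (44%), against 4.62%. E2F letters (TTTCCCGC, TTTGGCGC or TTTCGCGC, either strand) were found in 3 of 25 (12%; CDK1, CENPA and NUSAP1), against 2.74%. In the 113 promoters of other mitosis genes CCAAT occurred in 55.8%, at least 2 CCAAT boxes in 24.8% and both elements in 32.7%. TTTGAA within 50 bases of the start occurred in 32.7% of them and E2F letters in 13.3%. The share with E2F letters was thus not particular to the members. The homology region letters were in 16 of the 20 members with a promoter that were lower in shFOXA2 and in 4 of the 5 that were not called. A letter match is a description of the sequence and not a measured binding site.

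**Figure D1:**
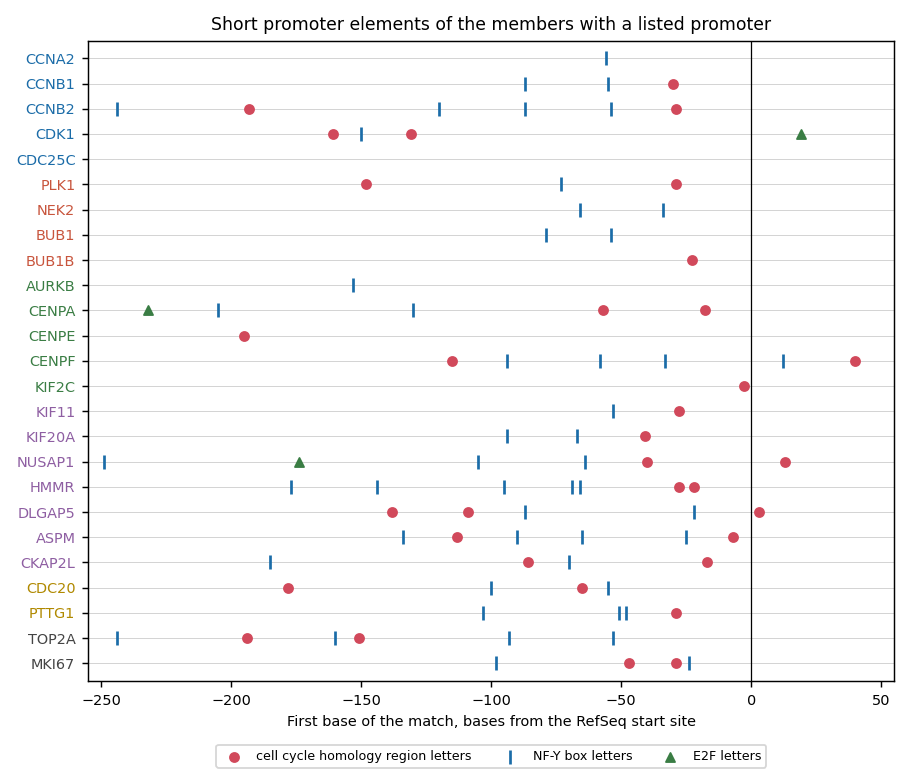
Position of the first base of each match in the 25 member promoters, in bases from the RefSeq start site (vertical line); red circles are TTTGAA or TTTAAA, blue bars are CCAAT and green triangles are E2F letters, and symbols are coloured by role. Homology region letters lie in 20 of the 25 rows, and the CDC25C row is empty.

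FOXA2, the targeted gene, had 52.3, 48.9 and 52.0 CPM (counts scaled to a common library size, with factors by edgeR's TMM over all 8 libraries) in the 3 shNC libraries and 29.73, 28.99 and 21.99 CPM in the 3 shFOXA2 libraries. It was thus reduced to 53.3% of shNC and not removed (log2 fold change -0.91 ± 0.086 SE, edgeR adjusted p = 6.88e-10). The untreated lines differed more: FOXA2 had 81.5 CPM in SW620 and 4.62 CPM in SW480. The total count was 7478411 to 13076566 in the hairpin libraries, 72323506 in SW480 and 95935348 in SW620, and the lowest member count in any hairpin library was 73. The summed level of 8 epithelial markers was 5980 to 8870 CPM over the 8 libraries, most of it KRT8, KRT18 and KRT19. Not every marker was high: CDH1 had 39.1 CPM in SW480. The intestinal factor CDX2 ran from 5.27 CPM in SW620 to 60.1 CPM in SW480, and CDX1 had 0 counts in 7 libraries. Replicate 1 of shFOXA2 stood apart from its group: 41 of 9655 genes with at least 100 counts in each shFOXA2 library were at least 1.8-fold above both other libraries there, against 0 in replicate 2 and 0 in replicate 3, a tally chosen after the values were seen. CCNB2 was the 1 member among those 41. In shNC the same tally gave 11 of 10825 genes in replicate 1, no member among them, and 0 in replicates 2 and 3.

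Knockdown of FOXA2 in SW620 went with lower RNA of most mitotic genes. All 30 members passed the filter on low counts, and 24 of them were lower in shFOXA2 by edgeR's quasi-likelihood test at an adjusted p of 0.05, where 19.8% of the 16100 genes tested were lower. None of the 30 was higher, where 19.2% of all tested genes were. That count of 0 was also 0 at an unadjusted p of 0.05, by DESeq2 and by limma-voom. The 2 groups did not overlap in 26 members, with shFOXA2 lower each time, a pattern found in 26.0% of all tested genes. The median log2 fold change of the members was -0.36, with a range from -1.25 to 0.03, and the median of all tested genes was 0.005. Most falls were modest: PTTG1, which is close to the median, stood at 78.2% of shNC.

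The summed level of the 30 members was 4920, 4864 and 4730 CPM in shNC and 3342, 3440 and 3286 CPM in shFOXA2. MKI67 alone made up 21.5 to 23.1% of that sum in shNC and 13.2 to 13.8% in shFOXA2. Without MKI67 the sums were 3711 to 3781 CPM and 2851 to 2986 CPM, so the groups did not overlap with or without it. Among the 6 hairpin libraries, shNC never held the lowest value of a member, and shFOXA2 replicates 1, 2 and 3 held it for 12, 5 and 13 members. Other cell types' markers were at low levels in both groups. The summed level of 6 leukocyte markers was 24 to 28.3 CPM in shFOXA2 and 18.3 to 23.8 CPM in shNC, most of it CD68 and LYZ, with CD3E at 0 in all 6 hairpin libraries. That of 6 fibroblast and endothelial markers was 16 to 18.8 CPM against 11 to 12.4 CPM, most of it LUM, with COL1A2 and COL3A1 at 0 in all 8 libraries. Of 6 liver markers the sum was 174 CPM in shFOXA2 replicate 1 and 23.6 to 26.6 CPM in the other 5, with APOB at 155 CPM in that replicate and TTR and FGB at 0 throughout. The part of these markers in the falls of the members was not tested.

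**Figure D2:**
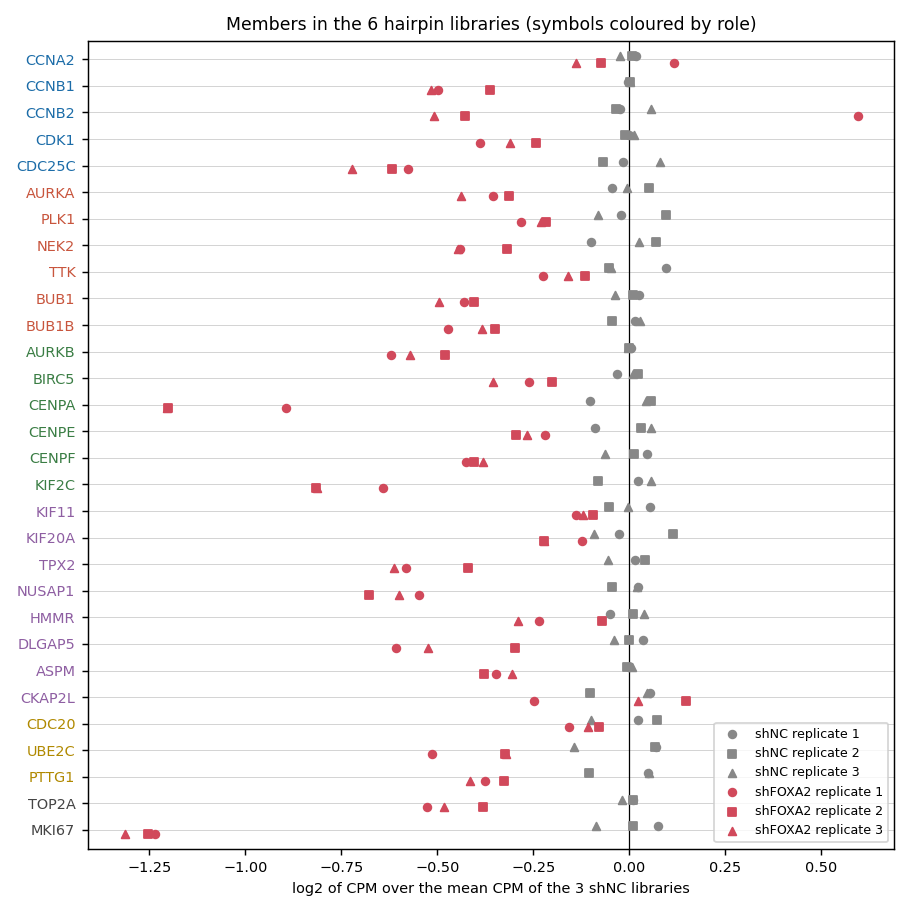
Level of each member in the 6 hairpin libraries as log2 of CPM over the mean of the 3 shNC libraries (grey shNC, red shFOXA2; circle, square and triangle are replicates 1, 2 and 3; symbols coloured by role). Red points lie left of all grey points in 26 of 30 rows, MKI67 and CENPA lie farthest left, and CCNB2 replicate 1 lies to the right.

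The cyclin and CDK1 genes of mitotic entry were split, with 3 of 5 lower and a median of -0.30. CCNB1 (ENSG00000134057.10), the main partner of CDK1, had 249, 249 and 249 CPM in shNC and 177, 194 and 174 CPM in shFOXA2. The groups were far apart and the shNC libraries nearly equal (log2 fold change -0.44 ± 0.045 SE, adjusted p = 7.16e-11). CDK1, the kinase itself, had 321, 319 and 324 CPM in shNC and 245, 272 and 259 CPM in shFOXA2, without overlap (-0.30 ± 0.043, adjusted p = 2.89e-07). CDC25C, the phosphatase that activates CDK1 at the G2 boundary, was the least abundant member, at 14.9, 14.4 and 15.9 CPM in shNC and 10.1, 9.80 and 9.12 CPM in shFOXA2. Its fitted fall was the largest of these 3 (-0.62 ± 0.12, adjusted p = 4.16e-05). It rests on 73 to 195 counts a library, and its difference from CCNB1 and CDK1 was not tested.

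CCNA2 and CCNB2 were not called. CCNA2, cyclin A, which acts from S phase to early mitosis, had 83.2, 82.7 and 80.8 CPM in shNC and 89.1, 78.1 and 74.7 CPM in shFOXA2, with overlapping groups (-0.01 ± 0.057, adjusted p = 0.95). CCNB2 (ENSG00000157456.3), the second B-type cyclin, had 64.1, 63.6 and 67.8 CPM in shNC and 98.5, 48.5 and 45.8 CPM in shFOXA2. Replicate 1 was thus above shNC and the other 2 below it, and the fitted change was 0.03 ± 0.36 SE (adjusted p = 0.966). The result rested on that 1 library: without it CCNB2 was lower in shFOXA2 by 0.46 on the log2 scale (-0.46, adjusted p = 4.27e-07), and 24 members were lower, 23 of them among the 24 called with all libraries. The values of the 3 shFOXA2 libraries rest on 1199, 361 and 462 counts.

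Of the 6 mitotic kinases and checkpoint genes, 5 were lower, with a median of -0.37. BUB1, a checkpoint kinase at unattached kinetochores, had 103.7, 102.4 and 99.3 CPM in shNC and 75.6, 76.9 and 72.2 CPM in shFOXA2 (-0.43 ± 0.050 SE, adjusted p = 2.96e-09). Its relative BUB1B, a subunit of the complex that holds back CDC20, had 80.8, 77.5 and 81.4 CPM against 57.6, 62.7 and 61.2 CPM (-0.39, adjusted p = 2.16e-07). NEK2, a kinase of centrosome separation, fell by the same amount, from 59.1 ± 3.57 (SD, n = 3) to 44.8 ± 2.26 CPM (-0.39, adjusted p = 4.49e-06). All 3 genes kept the groups apart. AURKA, the centrosomal Aurora kinase, went from 101.4, 108.4 and 104.1 CPM to 81.7, 84.2 and 77.2 CPM (-0.35, adjusted p = 2.00e-07). PLK1, which acts at centrosomes and kinetochores from mitotic entry onward, had the smallest called change of the 6, from 111, 121 and 107 CPM to 92.9, 97.3 and 96.3 CPM (-0.23 ± 0.049, adjusted p = 2.38e-04). TTK, the kinase at the top of the checkpoint, did not pass (-0.15 ± 0.071, adjusted p = 0.0902), although its shFOXA2 libraries, at 37.3 to 40.3 CPM, lay below the shNC libraries, at 42.0 to 46.6 CPM.

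All 6 kinetochore, centromere and passenger genes were lower, with a median of -0.47. CENPA (ENSG00000115163.10), the histone H3 variant that marks the centromere, had 25.3, 28.2 and 28.0 CPM in shNC and 14.6, 11.8 and 11.8 CPM in shFOXA2. Its level was 48.0% of shNC (-1.06 ± 0.10 SE, adjusted p = 1.33e-11), the 186th largest fall among the 16100 genes tested. KIF2C, the microtubule depolymerase of the inner centromere, had 77.3, 71.9 and 79.2 CPM against 48.8, 43.2 and 43.3 CPM (-0.73 ± 0.062, adjusted p = 5.00e-13). The catalytic subunit of the passenger complex, AURKB, was at 86.2, 86.0 and 85.7 CPM in shNC and 55.9, 61.6 and 57.9 CPM in shFOXA2 (-0.54, adjusted p = 5.67e-11). BIRC5, survivin, which anchors the same complex at the centromere, changed less, from 96.7 ± 1.90 to 80.2 ± 4.25 CPM (-0.26, adjusted p = 7.22e-05). The long coiled-coil proteins of the outer kinetochore differed in abundance: CENPF fell from 376 ± 14.4 to 284 ± 4.23 CPM (-0.39, adjusted p = 5.31e-10) and the motor CENPE from 58.1 ± 3.11 to 48.6 ± 1.29 CPM (-0.24, adjusted p = 2.00e-03). The groups did not overlap for any of the 6.

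Spindle motors and microtubule proteins gave 6 lower genes of 8 and a smaller median, -0.25. NUSAP1, which bundles microtubules around chromosomes, had 118, 113 and 118 CPM in shNC and 79.5, 72.6 and 76.6 CPM in shFOXA2 (-0.59 ± 0.050 SE, adjusted p = 4.93e-13). TPX2, the activator of AURKA on the spindle, had 222, 226 and 212 CPM against 147, 165 and 144 CPM (-0.52 ± 0.048, adjusted p = 7.76e-12). TPX2 thus fell to 69.7% of shNC and AURKA to 78.3%. DLGAP5, a spindle assembly factor, fell from 86.5 ± 2.26 to 62.5 ± 7.11 CPM (-0.46, adjusted p = 1.05e-07). ASPM, a spindle pole protein, was at 190 to 192 CPM in all 3 shNC libraries and at 147 to 154 CPM in shFOXA2 (-0.33, adjusted p = 8.60e-08).

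The other 4 spindle genes were near or beyond the limit of the test. HMMR, a spindle protein that is also a hyaluronan receptor, had a log2 change of -0.18 (adjusted p = 0.0139), and KIF20A, a kinesin of the central spindle, one of -0.17 (adjusted p = 0.038). Both calls were lost with DESeq2's Wald test, with an adjusted p of 0.0622 for HMMR and 0.123 for KIF20A, and with single libraries left out: HMMR without shFOXA2 replicate 1 or 3 or shNC replicate 3 (adjusted p = 0.0537 to 0.0938), and KIF20A without shFOXA2 replicate 2 or 3 or shNC replicate 2 (0.109 to 0.266). KIF11, the plus-end motor that pushes the spindle poles apart, had 145, 134 and 139 CPM in shNC and 127, 130 and 128 CPM in shFOXA2. Its libraries did not overlap but the change was small (-0.10 ± 0.046, adjusted p = 0.0828). CKAP2L, a spindle pole protein, had overlapping groups of 30.2 to 33.7 and 27.4 to 36.0 CPM (-0.01 ± 0.086, adjusted p = 0.933).

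Of the 3 anaphase genes, UBE2C and PTTG1 were lower and CDC20 was not called. UBE2C, the ubiquitin-conjugating enzyme that starts chains for the anaphase promoting complex, had 106, 105 and 91.1 CPM in shNC and 70.5, 80.4 and 80.6 CPM in shFOXA2 (-0.37 ± 0.061 SE, adjusted p = 2.49e-05). PTTG1, securin, the inhibitor of separase, had 73.7, 66.3 and 73.9 CPM against 54.9, 56.9 and 53.5 CPM (-0.36 ± 0.059, adjusted p = 3.98e-06). CDC20, the activator of the complex in metaphase, had 119.5, 123.6 and 109.7 CPM against 105.5, 111.3 and 109.2 CPM, so that the lowest shNC library lay inside the range of shFOXA2 (-0.10 ± 0.049, adjusted p = 0.107).

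The 2 chromosome proteins differed in size of change. MKI67 (ENSG00000148773.8), the Ki-67 protein that coats mitotic chromosomes and serves as the routine proliferation marker, had 1139, 1089 and 1019 CPM in shNC and 460, 454 and 435 CPM in shFOXA2. At 42.0% of shNC this was the largest fall of the members (-1.25 ± 0.044 SE, adjusted p = 3.79e-25), the 101st largest fall and the 8th smallest p among all tested genes. TOP2A, the topoisomerase that decatenates sister chromatids, had 611, 611 and 598 CPM against 421, 466 and 434 CPM (-0.45 ± 0.042, adjusted p = 1.24e-11). MKI67 and CENPA were the only members that fell by more than 1 on the log2 scale; the other 22 called members stood at 60.2 to 89.0%.

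Compared per length, in CPM per kilobase of the listed gene length, 4 members moved by 5 ranks between the hairpin groups and none by more. In shNC the highest levels were those of CCNB1 (97.4 ± 0.16 SD, n = 3), TOP2A (94.2), MKI67 (84.5) and CDK1 (82.1), and the lowest that of CDC25C (4.95). MKI67 and CDK1 did not differ beyond their SDs in shNC. In shFOXA2 MKI67 went from rank 3 to rank 8, at 35.1 CPM per kilobase. AURKB went from 9 to 14 and KIF2C from 19 to 24, and CCNA2, which was not called, went up from 14 to 9. CCNB1 and TOP2A stayed at ranks 1 and 2 with 70.95 and 68.41. Their SDs overlapped in shFOXA2, but CCNB1 lay above TOP2A within each of the 3 libraries (68.99, 75.76 and 68.09 against 65.41, 72.35 and 67.48). In untreated SW620 MKI67 had the highest level per length (127) and in SW480 TOP2A did (139). Across the 30 members the hairpin log2 fold change showed little relation to the length of the gene (Pearson's r -0.13, Spearman's rho 0.05) or to its level in shNC (r -0.25, rho -0.19); these are descriptions over genes measured in the same 6 libraries.

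**Figure D3:**
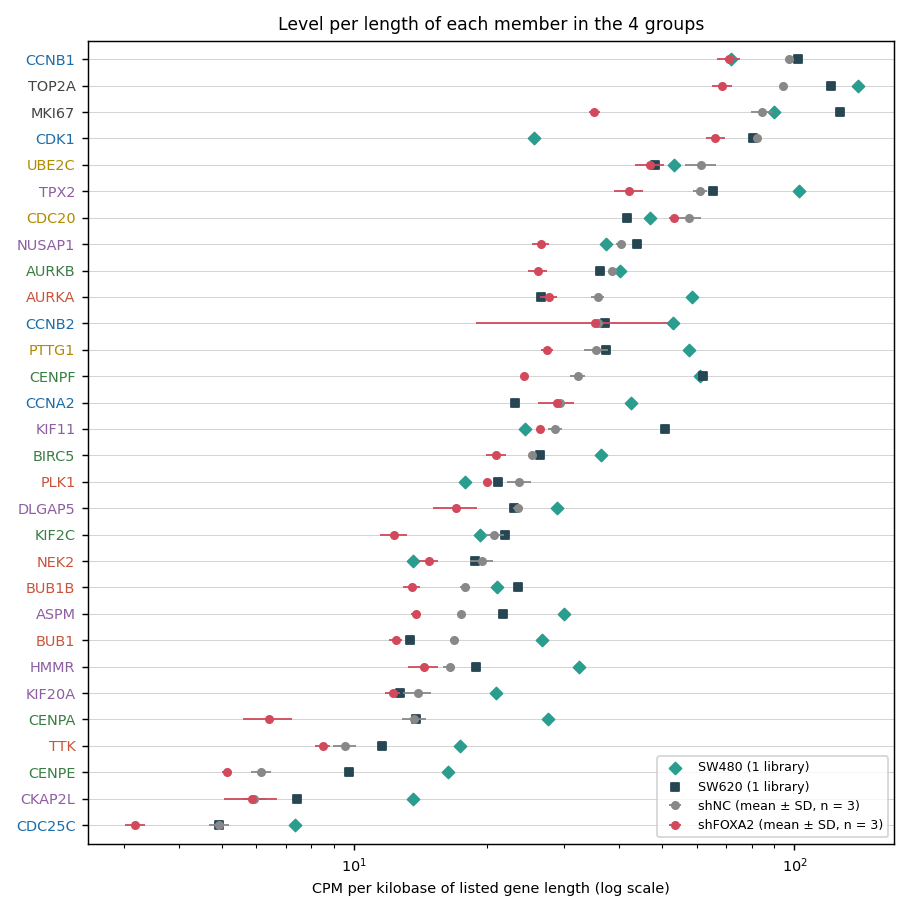
Level of each member per kilobase of listed gene length on a log axis, in SW480 and SW620 (1 library each) and in shNC and shFOXA2 (mean ± SD, n = 3), ordered by shNC. The MKI67 mean falls from 84.5 in shNC to 35.1 in shFOXA2, the wide bar of CCNB2 comes from shFOXA2 replicate 1, and CDK1 in SW480 lies far below its other 3 groups.

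Other genes of mitosis were also more often lower than higher. Of 129 further genes in 8 lists, 65 were lower and 9 higher in shFOXA2, with a median of -0.19, where 19.8% of all tested genes were lower and 19.2% higher. The cytokinesis list (9 lower and 1 higher of 14, median -0.30) and the other mitotic kinesins (7 and 1 of 10, -0.27) were closest to the members. The outer kinetochore (10 and 1 of 17, -0.24), checkpoint and passenger partners (5 and 0 of 10, -0.18), spindle and centrosome (13 and 1 of 25, -0.18) and centromere chromatin (5 and 1 of 17, -0.13) lay between. Condensin and cohesin (9 and 1 of 19, -0.07) and the anaphase promoting complex (7 and 3 of 17, -0.06) had medians nearest to that of all tested genes. The counts of single lists are small, and some lie near the shares of all tested genes.

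The 3 genes with the smallest p in each list included partners of several members, while 55 of the 129 genes were not called. RACGAP1, which with KIF23 forms the centralspindlin complex of the cleavage plane, fell from 131 ± 6.23 to 79.6 ± 1.79 CPM (-0.70, adjusted p = 1.11e-15), and KIF23 was not called (0.04, adjusted p = 0.652). MAD2L1 (-0.13), SGOL1 (-0.15), GSG2 (-0.15), TRIP13 (0.03) and MAD2L1BP (0.002) among the checkpoint and passenger partners were not called either; these 5 and KIF23 were named after their values were seen. INCENP, the scaffold that joins AURKB and BIRC5, fell by 0.60 on the log2 scale (-0.60, adjusted p = 3.24e-12), and CDCA8, borealin, by less (-0.29, adjusted p = 3.90e-04). HJURP, the chaperone that loads CENPA, changed by -0.39 (adjusted p = 2.82e-06). UBE2S, the enzyme that extends the chains begun by UBE2C, had the largest fall of the 129, from 206 ± 5.27 to 88.5 ± 7.89 CPM (-1.20, adjusted p = 2.08e-21). SPC24 (-0.87), DSN1 (-0.52) and ZWINT (-0.34) of the outer kinetochore, CENPW (-0.74) and CENPM (-0.69) of the inner kinetochore, and BUB3 (-0.21), the partner of BUB1, were also lower. RAD21, the cohesin subunit cut at anaphase, changed by -0.50, its protease ESPL1, which PTTG1 inhibits, by -0.43, and NCAPH2 of condensin II by -0.73. The kinesins KIF4A (-0.43), KIF15 (-0.51) and KIF22 (-0.30) fell, as did PRC1 (-0.45), which bundles the central spindle, STMN1 (-0.45), which destabilises microtubules, and TUBG1 (-0.59), the gamma-tubulin that nucleates them. The cytokinesis list also gave ARHGAP11A (-0.35) and CDCA7 (-0.41), the latter a chromatin protein and no part of the cleavage machinery. Of the anaphase promoting complex, CDC27 (-0.72) and the late activator FZR1 (-0.87) fell while CDC23 rose (0.34, adjusted p = 1.49e-05). The other 8 genes that rose were ZWILCH, CENPN, PDS5A, ANAPC1, ANAPC4, KIF3B, NEDD1 and ANLN, by 0.12 to 0.38. KIF3B, the gene that rose in the kinesin list, is known mainly as a transport motor.

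**Figure D4:**
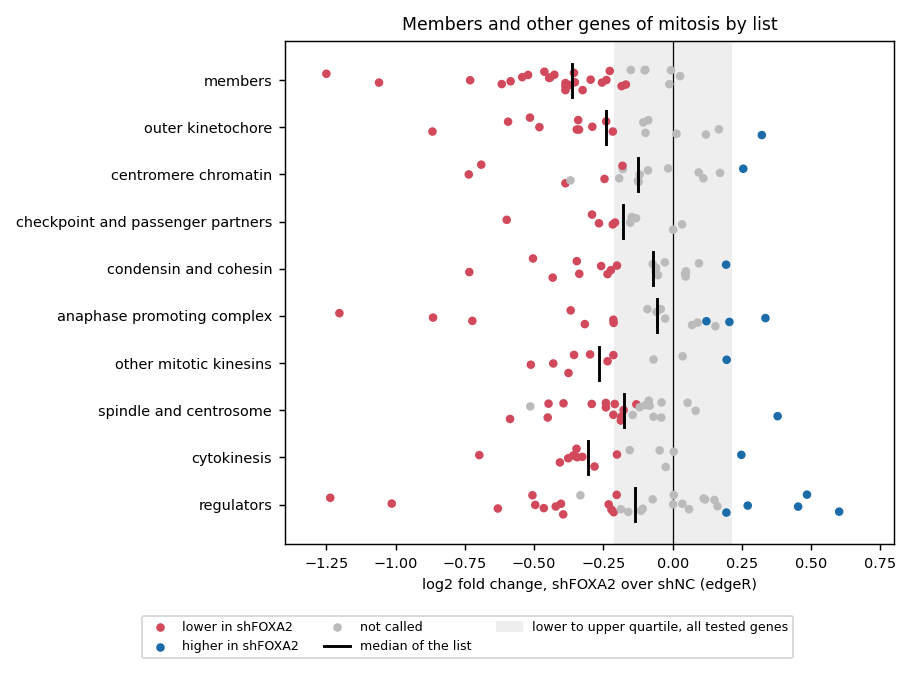
Log2 fold change of shFOXA2 over shNC for the members, 8 lists of other mitosis genes and the regulators (1 point a gene; red lower, blue higher, grey not called; black bar the median; shaded band from the lower to the upper quartile of all tested genes, -0.21 to 0.21). The member median of -0.36 lies left of the band, and no member is blue.

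Among the 32 genes of the regulator list, 13 were lower, 5 higher and 14 not called, where 19.8% of all tested genes were lower and 19.2% higher. The list joins regulators of transcription with genes that act on CDK1 itself, so its counts do not describe regulators of the members' RNA alone. Of the activators that bind the homology region through the MuvB core, MYBL2, the B-MYB protein, had 108, 112 and 94.7 CPM in shNC and 74.4, 76.1 and 69.1 CPM in shFOXA2 (-0.51 ± 0.058 SE, adjusted p = 2.34e-08). FOXM1 changed by less than the median member, from 124, 119 and 118 CPM to 102, 99.7 and 102 CPM (-0.23 ± 0.046, adjusted p = 6.81e-05). Both genes kept the groups apart. Of the MuvB core itself, RBBP4 fell to 99.5 ± 3.77 from 238 ± 7.13 CPM (-1.24, adjusted p = 3.29e-24) and LIN52 to 9.92 ± 1.74 from 15.7 ± 1.35 CPM (-0.63, adjusted p = 5.88e-05), whereas LIN9 (-0.16), LIN37 (-0.33) and LIN54 (0.16) did not pass.

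Of the E2F factors, E2F1 (-0.42), E2F2 (-1.01), E2F3 (-0.40) and E2F8 (-0.47) were lower, and E2F4 (-0.07) and E2F7 (0.04) were not called. RB1, the retinoblastoma repressor, was higher (0.27, adjusted p = 8.23e-05), and its relatives RBL1 (0.11) and RBL2 (-0.11) were not called. CDKN1A, the CDK inhibitor p21, was higher at 11.1 ± 0.39 (SD, n = 3) against 8.22 ± 1.04 CPM (0.45 ± 0.14 SE, adjusted p = 7.04e-03). Of NF-Y, NFYB was lower (-0.22, adjusted p = 0.0327; 0.105 with DESeq2 and 0.0937 to 0.197 without shFOXA2 replicate 1 or 3 or shNC replicate 1), and NFYA (-0.11) and NFYC (0.12) were not called.

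The switch that sets CDK1 activity was divided. PKMYT1, a kinase that inhibits CDK1, was lower (-0.50, adjusted p = 7.62e-10) and WEE1, the other such kinase, was not called (0.06, adjusted p = 0.46). CDC25A, a phosphatase of the same family as CDC25C, was higher (0.49 ± 0.057 SE, adjusted p = 3.13e-09), at 85.6, 89.7 and 79.8 CPM against 62.4, 64.2 and 57.4 CPM, while CDC25B was not called (0.004). The 3 CDC25 genes thus gave 1 fall, 1 rise and 1 gene without a call. CKS2, a small CDK1 subunit, was lower (-0.40), and CKS1B was not called (0.15), with shFOXA2 replicate 1 at 156 CPM and the other 2 at 105 and 94.7 CPM, the same library that was high for CCNB2. PPP2R2A (0.60), a subunit of the phosphatase that opposes CDK1, was higher, as was MASTL (0.19), the kinase that restrains this phosphatase through ENSA and ARPP19. The call of MASTL was lost with no filter, with DESeq2 and without any 1 library other than shFOXA2 replicate 3 (adjusted p = 0.0636 to 0.119). ENSA (-0.20) was lower and ARPP19 (0.002) was not called. GAS2L3 (-0.19), which is in the same list but no part of this switch, was not called either.

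The first FOXA2 hairpin was checked against the members, because its target, gaacggcatgAACACGTAcat (capitals mark the letters in question), holds the stretches AACACGT and ACACGTA, at its bases 11 and 12, that an earlier analysis of these same data had picked out. None of the 30 members carried either stretch in its longest annotated 3' UTR (GENCODE release 29 on GRCh38), against 668 of 12440 tested genes (5.37%). Those 668 genes had a median log2 fold change of -0.10, against 0.02 for genes without a stretch. The stretches were picked on these same data, so these medians are no independent result. Among the 129 other mitosis genes and 32 regulators, ARHGAP11A, BUB3, CDC27, CENPP, FZR1, INCENP, RBBP4 and STAG1 carried one. CENPP was not called and the others were lower in shFOXA2. In these lists 65 of the 129 and 13 of the 32 genes were lower, and 19.8% of all tested genes were. These falls belong to the data on which the stretches were picked, so they are no independent result either. Whether these lists carry a stretch more often than all tested genes was not tested. Other stretches of the target, other transcript parts, other 3' ends and the second hairpin were not searched.

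Between the untreated lines more members were higher in SW480 than in SW620. With 1 library a line there is no test, and intervals cover counting error of a ratio of 2 counts only, not differences between cultures. The summed level of the members was 6035 CPM in SW480 and 6041 CPM in SW620. MKI67 made up 19.1% and 26.9% of these sums, and without it they were 4882 CPM in SW480 and 4416 CPM in SW620. Of the 30, 2 were at least 1.5-fold higher in SW620, where 16.0% of the 21343 genes with at least 20 counts were, and 10 were at least 1.5-fold higher in SW480, where 18.4% were. The median log2 ratio of SW620 over SW480 (1 CPM added) was -0.39 for the members, with 20 below 0, and 0.002 for all genes. The 129 other mitosis genes had a median of 0.004.

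CDK1 and KIF11 were the 2 genes higher in SW620. CDK1 had 315 CPM in SW620 and 100 CPM in SW480, a ratio of 3.15 (95% interval 3.07 to 3.24), and KIF11 had 246 and 119 CPM, a ratio of 2.08 (2.02 to 2.13). MKI67, at 1625 and 1153 CPM, and CCNB1, at 260 and 184 CPM, both had a ratio of 1.41 and missed the 1.5-fold limit. So the 2 partners of the mitotic kinase, CDK1 and CCNB1, were both above SW480, but CCNA2 (0.544) and CCNB2 (0.702) were below. At the other end, AURKA had 77.8 CPM in SW620 and 171 CPM in SW480, 2.20-fold higher in SW480, and BUB1 (80.7 and 161 CPM) and CENPA (27.3 and 54.6 CPM) were 1.99-fold and 2.00-fold higher there. The AURKA activator TPX2 (0.639), and CKAP2L (0.545), HMMR (0.584), CENPE (0.597), KIF20A (0.605), PTTG1 (0.647) and CCNA2 complete the 10. The count of 10 was made with 1 CPM added, and the single ratios are given without it. TTK, at a ratio of 0.665, was just past 1.5-fold without the added CPM and just short of it with it (log2 ratio -0.58). CENPF (1.01) and TOP2A (0.87) were near equal.

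The position of a member on the chromosomes went with part of this order. CDK1, KIF11 and MKI67 are the 3 members on chromosome 10, all were higher in SW620, and the 589 genes of chromosome 10 had a median log2 ratio of 0.64, the highest of the 22 autosomes. BUB1, CENPA and CKAP2L are the 3 members on chromosome 2, all were higher in SW480, and its 1111 genes had the lowest median, -0.38. Relative to the median of their own chromosome, CDK1 still lay at 1.01, KIF11 at 0.41 and MKI67 at -0.15, while BUB1 lay at -0.61 and CENPA at -0.59. Of the 30 members, 21 lay below their own chromosome's median and 8 above it. DNA copy number was not analysed here.

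**Figure D5:**
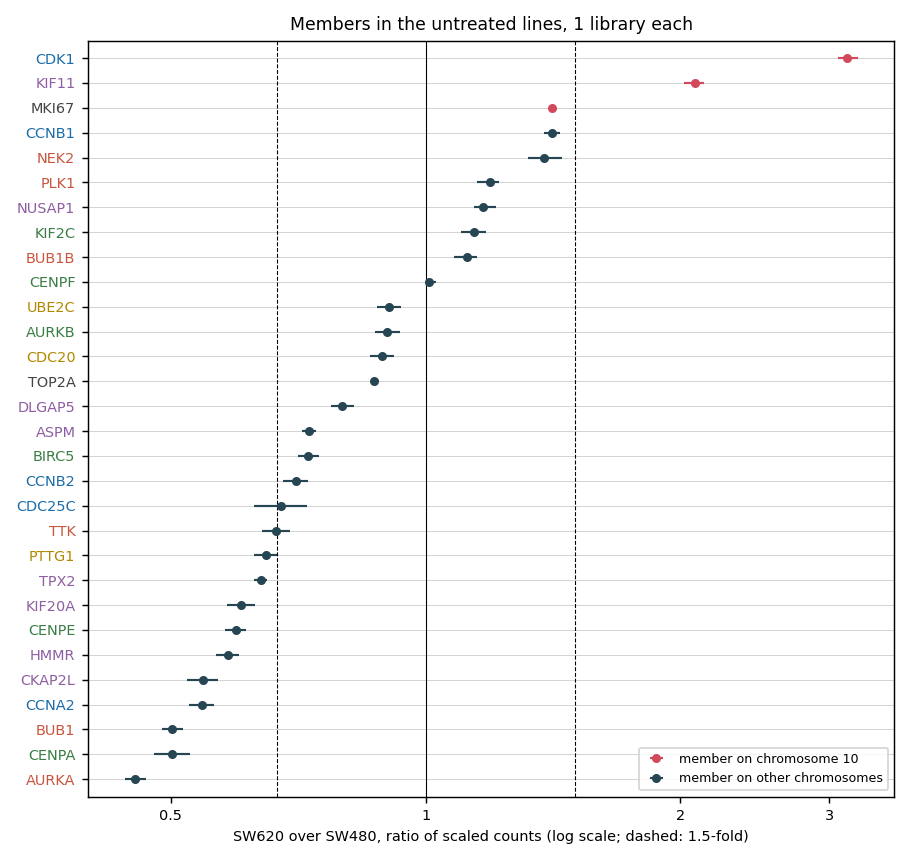
Ratio of scaled counts, SW620 over SW480, for each member on a log axis, with 95% intervals for counting error (1 library each; dashed lines at 1.5-fold, red for members on chromosome 10). CDK1 and KIF11 lie beyond the right dashed line, and AURKA, at 0.454, lies farthest left. The ratios are without an added CPM, so TTK, at 0.665, lies just past the left dashed line although it is not among the 10 counted.

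The hairpin effect and the line difference pointed in different ways for several members. MKI67 and CCNB1 were lower in shFOXA2 and higher in SW620, which has more FOXA2 RNA, whereas CENPA and AURKA were lower in shFOXA2 and higher in SW480, which has little of it. Over the 30 members the 2 log2 values had Pearson's r of -0.13 and Spearman's rho of -0.22, given as a description without a test. The untreated SW620 library also differed from the vector-carrying shNC libraries: 17 members were above all 3 shNC libraries and 9 below them. CENPF (1.92-fold), KIF11 (1.77-fold), CENPE (1.58-fold) and MKI67 (1.5-fold) were the highest against the shNC mean, and CDC20 (0.722) and AURKA (0.744) the lowest. These ratios went with gene length over the 30 members (r 0.68, rho 0.61), as they did, less closely, over 10795 genes with at least 100 counts in the 4 libraries (r 0.27, rho 0.39). The untreated libraries were also deeper and had 11.1 to 11.7% mitochondrial counts (hairpin libraries, 4.46 to 4.82%). Vector, puromycin, depth and any difference in culture or library preparation cannot be told apart in these ratios.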

How the data were processed

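Total RNA of 1 SW480 library, 1 SW620 library and 6 SW620 hairpin libraries was sequenced from a directional kit, per the labels' protocols. Each deposited table lists 42713 genes with raw counts, a gene length and RPKM values made by the authors. The deposited RPKM values equal counts scaled by length and table total for 100% of genes above 20 counts (relative difference up to 1e-04) and were used only for that check. HOMER and hg19 are named in the submitters' processing notes without their roles; aligner, counting tool, annotation and use of strand: not given in the sources used here.

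All lists and the 30 members were chosen with earlier results of these data known. Of repeated symbols (256 of 40693, no member) the entry with the most counts was used. The 3 shFOXA2 and 3 shNC libraries were compared with edgeR 4.0.16 (TMM factors, low counts filtered by filterByExpr, robust quasi-likelihood test, two-sided, Benjamini-Hochberg over 16100 genes at 0.05). The biological coefficient of variation was 6.59%. An exact permutation test of 3 against 3 libraries cannot go below 0.1 and was not used. The untreated lines were compared by TMM-scaled CPM with 1 CPM added and 95% exact intervals for the ratio of 2 counts; PCR reads without molecular identifiers are not independent, so only counting error is covered. Over the 8 libraries, 3 counts correspond to 0.0313 to 0.401 CPM. Alternatives were other scalings, no filter, DESeq2 1.42.0, limma-voom (limma 3.58.1), an adjusted p of 0.01, a replicate block and leaving out each library. Scripts were tested on simulated data. Named genes were all members, FOXA2, all regulators except 1 that is not reported here, and the 3 genes with the smallest p in each list; the genes of those lists that rose were named after their values were seen. Promoters came from RefSeq on GRCh38.p14, and chromosomes and 3' UTRs from GENCODE 29 on GRCh38; no coordinates were taken from hg19.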

Additional observations from a re-analysis of the deposited data

How the results depend on the processing

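The count of members lower in shFOXA2 was 24 and ran from 22 to 26 over the alternatives, and from 22 to 24 without any 1 library; 0 members were higher under each of them. The members' median log2 change ran from -0.35 to -0.39. Among the other mitosis genes 57 to 68 were lower and 7 to 10 higher. With the replicate number as a block, 24 members were lower, 0 higher and the median was -0.36. Deviations of same-numbered libraries had correlations of 0.006, -0.05 and 0.004, and not every library correlated best with its own number, so the numbers were not taken as pairs. The 30 member fold changes under 14 alternatives gave 395 values on the same side of the threshold in the same direction, 11 that were no longer past it, 4 that were newly past it and 10 of the other sign, 1 of which, CCNB2 without shFOXA2 replicate 1, was also newly past it (adjusted p = 4.27e-07). The values of the other sign all belonged to genes that were not called with all libraries: with 1 library left out, CCNA2 ran from -0.09462 to 0.04038 and CKAP2L from -0.09454 to 0.09397. CCNB2 was -0.004995 with no filter, -0.001435 with DESeq2's Wald test, -0.03774 with limma-voom and -0.04998 with the block, and ran from -0.4575 (without shFOXA2 replicate 1) to 0.2207 with 1 library left out.

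Calls were lost for HMMR and KIF20A, including at an adjusted p of 0.01, and gained for KIF11 with total counts (adjusted p = 0.0467) and with no filter (0.0327), for CDC20 with no filter (0.0432) and without shNC replicate 3 (0.0232), and for CCNB2 as above. Regulators near 0 also changed sign. With 1 library left out, E2F7 ran from -0.01102 to 0.06384, RBL1 from -0.04002 to 0.1886, CDC25B from -0.01468 to 0.0102, CKS1B from -0.1195 to 0.2852 and ARPP19 from -0.04614 to 0.02373. With total counts CDC25B was -0.008561 and ARPP19 -0.01002, and with no filter they were -0.02666 and -0.02873. Between the untreated lines 1 member was higher in SW480 at a 2-fold limit in place of 10 at 1.5-fold, and the median log2 ratio was -0.31 with total counts in place of -0.39. Standard errors of the members ran from 0.042 to 0.36, the largest being that of CCNB2, whose shFOXA2 libraries were spread; CDC25C, with the fewest counts, had 0.119. The cause of these changes was not tested.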
